A study of Mus musculus with 2 samples.

Results

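The genes described here are 9 matricellular and adhesive glycoprotein genes of dermal fibroblasts, Sparc, Postn, Fn1, Thbs2, Tnxb, Cilp, Spon2, Dpt and Ccdc80, out of 31053 genes in the count tables. They were chosen by symbol with their levels, shares of cells and differences between the libraries already known, so those values are given as a description and carry no test. Single cells were profiled from the dermis of C57BL/6 mice aged 8 weeks with the genotype PdgfraDreER-tdTomato, in which tamoxifen activates a Dre recombinase made in Pdgfra-expressing cells and so turns on the red reporter. There was 1 library of untreated skin (UT) and 1 of skin treated for 7 days with imiquimod (IMQ), a Toll-like receptor agonist that causes psoriasis-like inflammation. Both groups carry the reporter and received tamoxifen, and both were sorted for live cells with tdTomato but without CD45, the leukocyte antigen. Cells that do not switch on the Pdgfra-driven recombinase are therefore outside the sort, and the number of mice behind each library is not stated in the sources used here. A single library per group gives no estimate of how mice differ, and every interval below is an exact 95% interval for counting error alone.

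Matricellular proteins are secreted into the matrix but serve less as its scaffold than as adaptors that tune how cells attach, how collagen fibrils assemble and how growth factors are presented. Adhesive glycoproteins such as fibronectin give integrins their binding sites and form the first template on which other matrix is laid down. In skin, fibroblasts are the main source of both, and several members are known from wound healing and from inherited connective tissue laxity.

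After barcodes with 200 to 5000 genes and at most 5% of UMIs (unique molecular identifiers, 1 per captured transcript) from mitochondrial mt- genes had been kept, 1045 of 1415 UT barcodes and 571 of 5047 IMQ barcodes remained. These barcodes held 1104798 and 460947 UMIs, with medians of 741 and 659 UMIs and of 391 and 275 genes per cell. With at most 10% mt- UMIs, 1301 and 1043 barcodes were kept. The libraries shared 1 barcode as deposited and 0 among those kept. The fibroblast markers summed to 80818 CPM (UMIs per 1000000 UMIs of the library) in UT and 121712 in IMQ, and all 7 were detected in both. Lists of markers of 5 other cell types summed to less in IMQ than in UT, at 1456 and 117 CPM for 4 class II antigen-presenting cell genes, 177 and 84.6 for 6 leukocyte genes, 1312 and 17.4 for 7 keratinocyte genes, 45.3 and 21.7 for 6 endothelial genes, and 114 and 17.4 for 6 mural genes. With the 10% limit the endothelial genes summed to 38.7 and 115.7 CPM. Cd3e, Rgs5, Myh11 and Cnn1 were at 0 in both libraries, Krt17 in UT, and Ptprc, Fcer1g, Krt5, Krt1, Krt15, Cdh5 and Tagln in IMQ. Gm42418, an RNA that overlaps ribosomal RNA repeats, took 1.38% of UT and 14.6% of IMQ UMIs, and the part of these differences in the results below was not tested except where a value without them is given. The IMQ table also held fewer barcodes than the study counts as IMQ cells after its filters, and whether the study used this same table cannot be told from the sources used here. The UT table held more barcodes than the study counts as UT cells, but fewer were kept here with the 5% limit.

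The genes lie on different chromosomes apart from Fn1 and Dpt on chromosome 1 and Thbs2 and Tnxb on chromosome 17, and all are protein coding in GENCODE M21 on GRCm38. Whether strand was used in counting is not stated, and the exons of Fn1 share 292 bases with the antisense gene Apol7d, which had 1 UMI in each library. Exons of Tnxb share 3 bases with a pseudogene on the opposite strand that is not among the counted genes. RefSeq start sites on GRCm38.p6 were found for 6 of the 9 members. The 100 bases before the start are printed for Sparc, the member with most UMIs and the only one over 2-fold higher in IMQ, for Thbs2 and Cilp, which were lower together, and for the downstream of the start sites listed for Postn. They run 5′ to 3′ on the strand of the gene, and capitals mark TATAA, the core of the TATA box.
Sparc, chr11:55420081-55420180, minus strand: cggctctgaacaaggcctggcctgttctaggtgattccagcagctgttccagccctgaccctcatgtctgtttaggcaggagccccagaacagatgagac
Thbs2, chr17:14694263-14694362, minus strand: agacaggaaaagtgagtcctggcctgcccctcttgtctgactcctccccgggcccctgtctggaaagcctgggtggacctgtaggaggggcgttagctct
Cilp, chr9:65265080-65265179, plus strand: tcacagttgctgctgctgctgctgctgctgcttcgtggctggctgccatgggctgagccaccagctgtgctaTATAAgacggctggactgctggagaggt
Postn, chr3:54361007-54361106, plus strand: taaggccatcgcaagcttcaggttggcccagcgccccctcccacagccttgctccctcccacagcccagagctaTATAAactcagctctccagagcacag
The letters searched on both strands over 250 bases before each start were the TATA core TATAA, the CAAT box CCAAT, the GC box GGGCGG, the AP-1 site TGACTCA, the TEAD site GGAATG and the E-box CACGTG, none of which contains another. They were found in 22.8%, 33.8%, 32.7%, 4.46%, 12.6% and 6.02% of 32817 such windows. TATAA began 28 bases before the start of Cilp and 26 before that of Postn, while Thbs2 held it on the opposite strand at 125 bases and CCAAT at 144 and, on the opposite strand, at 186 bases before its start. Tnxb held TGACTCA on the opposite strand at 55 bases before its start, and Sparc and Dpt held none of the letters. Thbs2 and Cilp, lower together in IMQ, thus shared TATAA at different positions and strands, which is a description of letters and not of a site in use.

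Sparc, a collagen-binding protein that helps procollagen leave the cell and fibrils assemble, was by far the most abundant member. It gave 21595 UMIs in UT, or 19547 CPM (19287 to 19809), and 19463 UMIs in IMQ, or 42224 CPM (41633 to 42821). A UMI marks 1 transcript end, so these levels need no correction for gene length when genes are compared. The next member, Dpt, stood at 1062 CPM in UT and 939 in IMQ, and Sparc thus outnumbered all other members together in both libraries. IMQ was 2.16 times UT (2.12 to 2.20), a log2 ratio of 1.11 (1.08 to 1.14), and with the 10% limit the log2 ratio was again 1.11. A Sparc UMI was present in 95.02% of cells in UT (93.5 to 96.3) and in 98.1% (96.6 to 99.0) in IMQ, so the libraries differed in UMIs per cell far more than in cells with a UMI. Cells with Sparc held a mean of 21.7 UMIs in UT and 34.8 in IMQ.

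**Figure D1:**
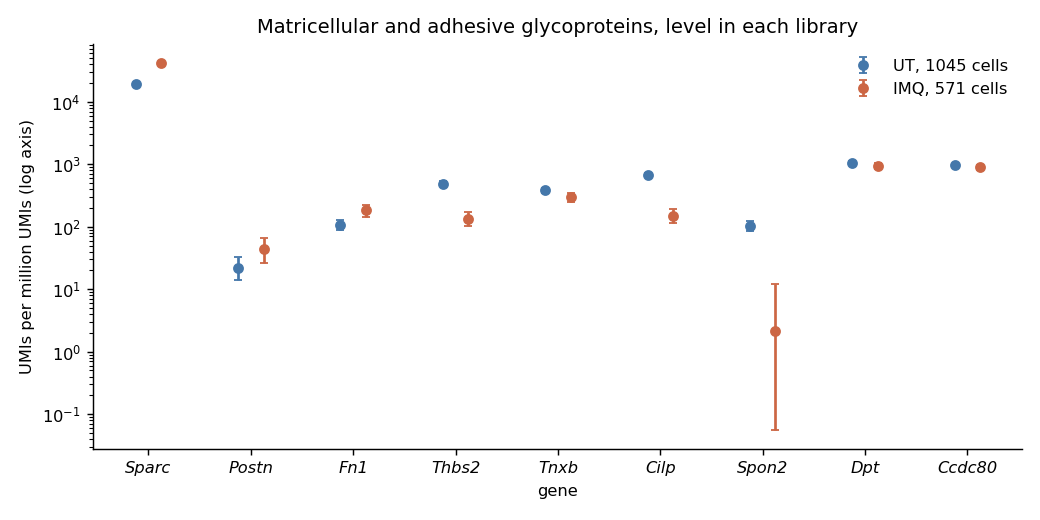
Level of each member in CPM (log axis) in the UT library (1045 cells, blue) and the IMQ library (571 cells, orange), with exact 95% Poisson intervals of the counts. Sparc lies above 19287 in both libraries, all other members lie near or below 1000, and Spon2 in IMQ rests on 1 UMI.

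Postn, encoding periostin, a matrix protein that binds integrins and collagen and is prominent in healing wounds, was close to the limit of detection. It gave 24 UMIs in UT, or 21.7 CPM, and 20 in IMQ, or 43.4 CPM. Its log2 ratio of 0.998 (0.07 to 1.92) sat just under the 2-fold limit and was 0.85 (0.12 to 1.58) with the 10% limit. Only 13 cells of each library held a Postn UMI, 1.24% of UT and 2.28% of IMQ cells.

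Fn1, encoding fibronectin, gave 119 UMIs in UT, 108 CPM (89.2 to 129). In IMQ 84 UMIs were found, 182 CPM (145 to 226). The log2 ratio was 0.76 (0.34 to 1.17), under 2-fold, and 1.01 (0.68 to 1.34), just over 2-fold, when the limit on mt- UMIs was raised to 10%. It was found in 7.56% of UT and 9.81% of IMQ cells. The 3 members whose level was higher in IMQ were therefore Sparc past 2-fold, and Postn and Fn1 near it.

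Thbs2, encoding thrombospondin-2, an inhibitor of vessel growth that also shapes collagen fibrils, went the other way. The 540 UMIs of UT made 489 CPM (448 to 532) and the 62 of IMQ made 135 CPM (103 to 172), a UT level 3.63 times that of IMQ (2.79 to 4.81). The log2 ratio was -1.86 (-2.26 to -1.48), and -2.03 with the 10% limit. Cells with a Thbs2 UMI made up 24.98% of UT (22.4 to 27.7) and 8.41% of IMQ (6.26 to 11.0).

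Cilp, encoding cartilage intermediate layer protein, which binds growth factors of the TGF-beta family, gave 749 UMIs in UT, or 678 CPM (630 to 728). In IMQ it gave 69 UMIs, or 149.7 CPM (116 to 189), and UT was 4.53 times IMQ (3.54 to 5.88). The log2 ratio was -2.18 (-2.56 to -1.82), and -2.07 with the 10% limit. Both the share of cells, 21.1% against 8.06%, and the mean UMIs in cells that held one, 3.389 against 1.5, were lower in IMQ.

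Spon2, encoding spondin-2 (mindin), a secreted protein that binds integrins and bacterial surface molecules, was nearly lost from the IMQ library. It gave 114 UMIs in 88 UT cells, 103 CPM (85.1 to 124), and 1 UMI in 1 IMQ cell, 2.17 CPM (0.055 to 12.1). The log2 ratio was -5.57 (-10.89 to -3.06). With the 10% limit the counts were 130 and 3 UMIs and the log2 ratio was -4.80 (-7.10 to -3.22). In IMQ a single cell therefore carries the value, and only the interval, not the ratio, is informative of its size.

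Tnxb, encoding tenascin-X, whose loss causes a form of Ehlers-Danlos syndrome, gave 426 UMIs in UT, or 386 CPM (349.8 to 424), and 137 in IMQ, or 297 CPM (249.5 to 351). Its log2 ratio was -0.38 (-0.66 to -0.09), and -0.20 (-0.41 to 0.01) with the 10% limit. Dpt, encoding dermatopontin, a small protein that links decorin and collagen fibrils, gave 1173 UMIs in UT, or 1062 CPM (1002 to 1124), and 433 in IMQ, or 939 CPM (853 to 1032), with a log2 ratio of -0.18 (-0.34 to -0.02). Ccdc80, a secreted protein of the pericellular matrix, gave 1065 UMIs in UT, or 964 CPM (907 to 1024), and 413 in IMQ, or 896 CPM (812 to 987), with a log2 ratio of -0.11 (-0.27 to 0.06). These 3 members stayed within 2-fold in either direction. Their sign depended on scaling, since all 3 log2 ratios were above 0 under TMM scaling, at 0.11 for Tnxb, 0.31 for Dpt and 0.38 for Ccdc80.

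In order of level in UT the members ran Sparc, Dpt, Ccdc80, Cilp, Thbs2, Tnxb, Fn1, Spon2 and Postn, and in IMQ Sparc, Dpt, Ccdc80, Tnxb, Fn1, Cilp, Thbs2, Postn and Spon2. The counting intervals of neighbours overlapped in UT for Dpt and Ccdc80 and for Fn1 and Spon2, and in IMQ for Dpt and Ccdc80, for Fn1 and Cilp and for Cilp and Thbs2. Cilp and Thbs2 thus moved from above to below Tnxb. All 9 members had at least 10 UMIs, so all are counted: 1 was at least 2-fold higher in IMQ, 3 at least 2-fold lower and 5 within 2-fold, with a median log2 ratio of -0.18. Without barcodes that held markers of other cell types the log2 ratio of Sparc was 1.03, of Thbs2 -1.94 and of Cilp -2.25, and in CPM without mt-, ribosomal protein, Gm42418 and AY036118 UMIs they were 1.37, -1.60 and -1.92. Over all 8129 genes with at least 10 UMIs, 4.03% were at least 2-fold higher and 34.2% at least 2-fold lower, so nothing is read from the count of lower members. The median gene had a log2 ratio of -0.63. Relative to that gene 3 members, Sparc (1.74), Postn (1.63) and Fn1 (1.39), were past 2-fold higher, where 13% of all genes were, and the same 3, Thbs2 (-1.23), Cilp (-1.55) and Spon2 (-4.94), past 2-fold lower, where 17.5% were. With the 10% limit the members split into 2 higher and 3 lower, against 3.78% and 34.7% of 8833 genes, and under TMM scaling into 3 and 3, against 10.1% and 20.0% of all genes.

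**Figure D2:**
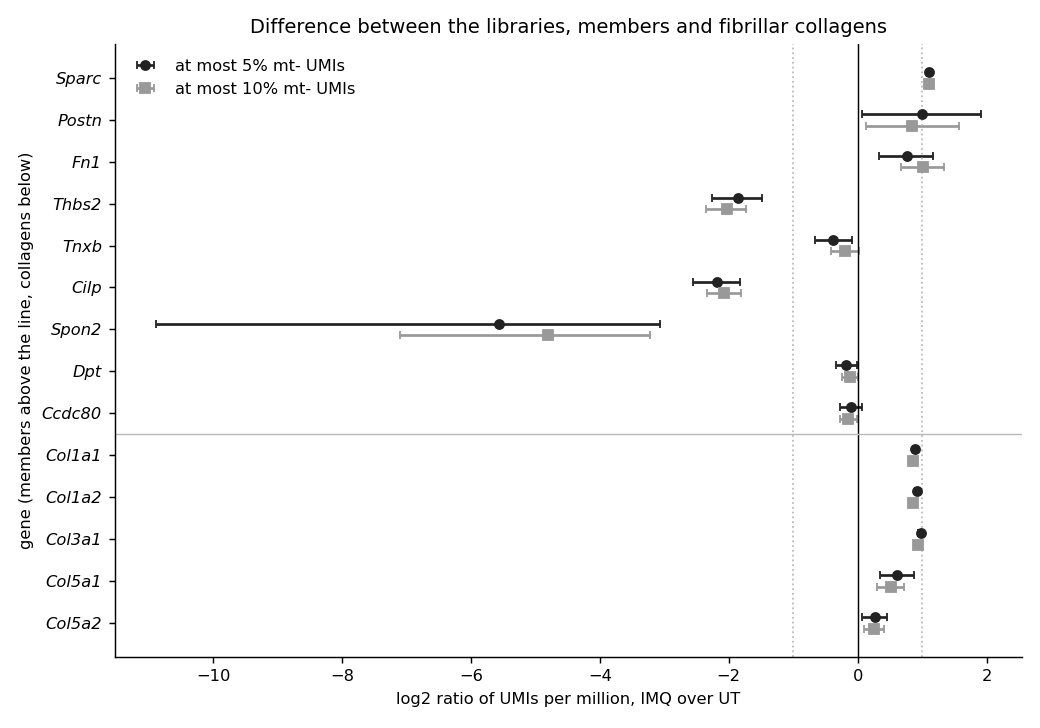
Log2 ratio of CPM, IMQ over UT, for the 9 members and the 5 fibrillar collagen genes with at least 100 UMIs, with at most 5% (black circles) or 10% (grey squares) mt- UMIs and exact 95% intervals of the counts. Dotted lines mark 2-fold. Sparc sits with Col1a1, Col1a2 and Col3a1 near 1, Thbs2, Cilp and Spon2 lie left of -1, and Tnxb, Dpt and Ccdc80 lie near 0.

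The fibrillar collagens, the main load-bearing proteins of the dermis, were the yardstick for the members. Of 10 listed genes 6 had at least 10 UMIs, and their median log2 ratio was 0.75, with 0 past 2-fold higher and 1, Col5a3 (62 UMIs in UT and 3 in IMQ, named after its value was seen), past 2-fold lower. Over all genes, 4.03% were past 2-fold higher and 34.2% past 2-fold lower. Col1a1 stood at 25527 CPM in UT and 47112 in IMQ (log2 ratio 0.88), Col1a2 at 17299 and 32748 (0.92) and Col3a1 at 10505 and 20675 (0.98), while Col5a1 (0.61) and Col5a2 (0.26) differed less. Over all kept cells Sparc kept pace with them. It gave 360.3 UMIs per 1000 fibrillar collagen UMIs in UT against 415 per 1000 for IMQ, which is 0.20 on the log2 scale (0.18 to 0.23). Within most bands of genes per cell, given below, its log2 ratio was instead lower than theirs. The other 8 members together gave 70.2 UMIs per 1000 collagen UMIs in UT against 26.0 for IMQ, which is -1.43 on the log2 scale (-1.53 to -1.34). Because Sparc made up most of the sum, all 9 members together gave 431 and 441 per 1000, a log2 ratio of only 0.04 (0.01 to 0.06).

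Taken singly against the collagens, the members spread over a wide range. Postn was at 0.400 and 0.427 UMIs per 1000 collagen UMIs (log2 ratio 0.09) and Fn1 at 1.99 and 1.79 (-0.15), close to the collagens like Sparc. Ccdc80 was at 17.8 and 8.81 (-1.01), Dpt at 19.6 and 9.24 (-1.08) and Tnxb at 7.11 and 2.92 (-1.28), so members that barely differed in CPM were about 2-fold lower per collagen UMI. Thbs2 was at 9.01 and 1.32 (-2.77), Cilp at 12.5 and 1.47 (-3.09) and Spon2 at 1.90 and 0.021 (-6.48). A ratio taken within a library does not depend on the total to which counts are scaled.

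Depth differed between libraries, so each cell was also thinned to 400 UMIs, which left out 73 UT and 33 IMQ cells and kept 972 and 538. Sparc was then seen in 92.7% of UT (90.9 to 94.3) and 97.2% of IMQ cells (95.4 to 98.4), and Fn1 in 2.47% (1.59 to 3.65) and 6.13% (4.26 to 8.51). Thbs2 was seen in 14.1% (11.97 to 16.4) and 5.02% (3.33 to 7.22) and Cilp in 13.99% (11.9 to 16.3) and 3.72% (2.29 to 5.68). At equal depth the shares of Sparc and Fn1 were thus higher and those of Thbs2 and Cilp lower in IMQ. Spon2 was left in 3.60% of UT cells and in 0 of 538 IMQ cells, where 3 cells would be 0.558% and the exact upper bound on the share of cells with a UMI at this depth is 0.683%. It was held by 2 of 993 thinned IMQ cells with the 10% limit. Tnxb, at 9.57% and 9.48%, and Ccdc80, at 24.4% and 24.3%, had nearly equal shares, and Dpt had 33.5% (30.6 to 36.6) and 28.4% (24.7 to 32.5). Postn was at 0.514% and 1.12%, on 5 and 6 cells. Free RNA gives UMIs in cells that do not make a gene, and as a background for such low shares the 5 UT and 3 IMQ barcodes with at least 5 class II UMIs, cells that should lack the members, held 1 Sparc UMI in each library and 0 of every other member at medians of 651 and 369 UMIs. In UT that is 115 CPM of Sparc (2.91 to 641) against 20043 in cells with no class II UMI. For each other member, 0 UMIs in the 5 UT barcodes has an upper bound of 424 CPM. That bound is above the UT level of Tnxb, Fn1, Spon2 and Postn. In both libraries these barcodes are thus too few to set a background for the rarer members. With the 10% limit, 6 such IMQ barcodes held 42 Sparc UMIs, 11336 CPM. After thinning, 26.3% of UT and 18.2% of IMQ cells held at least 3 of the 9 members, with a median of 2 in both.

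The difference in Sparc depended on how many genes were found in a cell, a split made after the data were seen. Cells with 200 to 299 genes made up 26.1% of UT and 62.3% of IMQ cells. In them Sparc stood at 25056 CPM over 273 UT cells and 50560.1 over 356 IMQ cells, a log2 ratio of 1.01, and in cells with 300 to 499 genes at 23670 and 43909, a ratio of 0.89. In cells with 500 to 999 genes, 251 in UT and 32 in IMQ, it stood at 22462 and 28043, a ratio of 0.32 (0.24 to 0.40). In the 52 UT and 5 IMQ cells with 1000 or more genes it was at 6834 and 5416, and the sign was reversed (-0.34). With a minimum of 500 genes per cell, which kept 303 UT and 37 IMQ cells, the log2 ratio of Sparc was 0.17 (0.09 to 0.25), no longer past 2-fold, and that of the fibrillar collagens was 0.18 instead of 0.91. From the fewest to the most genes per cell the fibrillar collagens had log2 ratios of 1.53, 1.02, 0.52 and -1.20, where Sparc had 1.01, 0.89, 0.32 and -0.34. Relative to the collagens Sparc was thus lower in IMQ in all bands but the last, the reverse of its ratio over all kept cells. In the last band, with 5 IMQ cells, it was higher.

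Among the other members Thbs2 was lower in IMQ in each, with log2 ratios of -1.19, -1.92, -2.30 and -0.77 from the fewest to the most genes per cell, and Cilp had -1.10, -1.78, -1.64 and -2.01. In the last band, with 5 IMQ cells, the interval of Thbs2 (-1.93 to 0.21) held 0. In UT the Cilp level climbed from 238 CPM in cells with 200 to 299 genes to 934 in those with 500 to 999, while in IMQ it went from 111 to 299. Fn1 was higher in IMQ in cells with 200 to 299 genes (63.5 and 193 CPM, log2 ratio 1.60) and 300 to 499 genes (84.0 and 212, 1.34), but it stood at 147 and 171 CPM with 500 to 999 genes, where its interval of -1.07 to 1.29 held 0. With 1000 or more genes it gave 27 UMIs in UT, 106 CPM, and 0 in IMQ, and with a minimum of 500 genes per cell its log2 ratio was -0.45 (-1.71 to 0.60), so that its sign turned. Ccdc80 had 0.36, 0.06, -0.15 and -0.97 and Tnxb 0.47, 0.10, -0.45 and -1.47, falling in value from the fewest to the most genes as those of Sparc and the collagens did. In all bands but the last the intervals of both held 0. The last band rests on 15 Ccdc80 and 5 Tnxb UMIs in 5 IMQ cells, so the fall is within counting error over most of its range. Dpt was below 0 in all bands, at -0.43, -0.44, -0.41 and -0.71, the last 2 with intervals that held 0. Spon2 gave 13, 28, 52 and 21 UMIs in UT and 0, 0, 1 and 0 in IMQ.

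**Figure D3:**
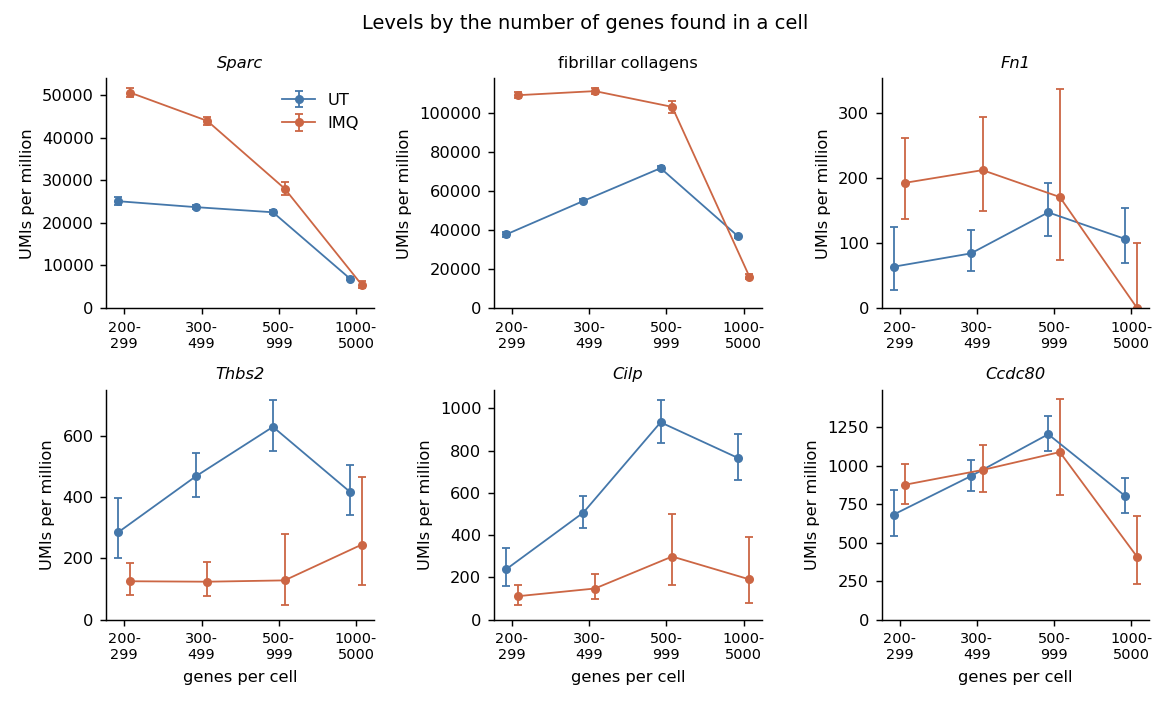
Level in CPM (linear axes from 0) of 5 members and of the summed fibrillar collagens in cells with 200 to 299, 300 to 499, 500 to 999 and 1000 to 5000 genes, UT in blue and IMQ in orange, with exact 95% Poisson intervals. The libraries are far apart for Sparc at 200 to 299 genes (25056 and 50560.1) and close at 500 to 999 (22462 and 28043), whereas Thbs2 and Cilp are lower in IMQ in every band.

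Cells were also split by mt- share, a sign of damaged cells. Sparc had log2 ratios of 1.25 up to 2.5%, 0.98 from 2.5 to 5%, 0.92 from 5 to 10% and 1.17 above 10%, where only 48 UT cells stood against 382 IMQ cells. Thbs2 had -1.75, -1.98, -2.30 and -2.78 and Cilp -2.36, -1.88, -2.02 and -1.25 over the same ranges, all with intervals below 0. Fn1 had 0.57, 0.98, 1.57 and 1.72, of which the first and last intervals held 0, and its IMQ level was 169.7, 196, 238 and 232 CPM. Dpt was the member whose sign turned with an interval clear of 0 above 10%, at 0.73 (0.07 to 1.48) on 19 UT UMIs. Tnxb had -0.28, -0.50, -0.12 and -1.78, so it was past 2-fold lower above 10% (-2.31 to -1.23), on 40 UT UMIs.

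Within a library the members also varied among cells. The genes that mark the cell classes were chosen with earlier results of these data known, so the values are a description. In UT, 209 cells (20.0%) held a UMI of Pi16, a marker of adventitial and fascial fibroblasts, and these held Cilp at 1603 CPM against 360.0 in other cells, a log2 ratio of 2.16 (1.94 to 2.37). Ccdc80 stood at 1855 against 658 CPM (1.495), Fn1 at 205 against 74.2 (1.47), Tnxb at 630.0 against 302 (1.06), Thbs2 at 683 against 422 (0.69) and Dpt at 1395 against 947 (0.56). Sparc was lower in the Pi16 cells, at 17089 against 20391 CPM (-0.25), and Spon2 stood at 106 against 102 CPM (0.06, with an interval of -0.60 to 0.67). In the 47 IMQ cells with Pi16, Cilp (1.75), Thbs2 (1.26), Fn1 (1.26), Tnxb (0.80) and Ccdc80 (0.67) were again higher than in other IMQ cells, and Sparc lower (-0.33). UT cells with Pi16 had more UMIs than the others, with medians of 1044 and 688, whereas in IMQ the medians were 661 and 659.

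Cells with a Pi16 UMI were 20.0% of UT and 8.23% of IMQ cells, and 13.1% and 5.02% after thinning, so the members rich in them were compared within each class, an addition made after the data were seen. Among cells with Pi16, Cilp was at 1603 CPM for UT and 399.9 for IMQ, a log2 ratio of -2.003 (-2.73 to -1.36), and among cells without it at 360.0 and 119 CPM, a ratio of -1.59 (-2.06 to -1.15). Thbs2 had -1.29 (-2.19 to -0.51) with Pi16 and -1.85 (-2.32 to -1.41) without. Both genes were past 2-fold lower in IMQ in either class. A single UMI sets the class, and the share with Pi16 falls when depth is lowered. Cells without a Pi16 UMI may therefore include cells that make it. The part of the Pi16 share in these differences was not tested. Sparc had 1.01 and 1.08. Fn1 had 0.89 (0.06 to 1.66) and 1.09 (0.57 to 1.62). Ccdc80 was split, at -0.47 (-0.86 to -0.10) with Pi16 and 0.36 (0.16 to 0.55) without, while Dpt (-0.34 and -0.04) and Tnxb (-0.39 and -0.13) had intervals that held 0 in both.

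**Figure D4:**
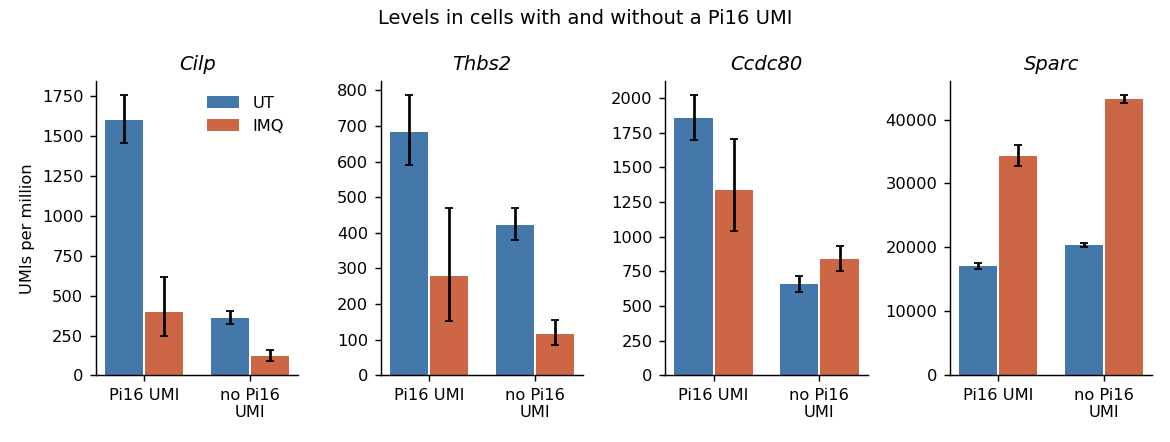
Level of 4 members in CPM in cells with and without a Pi16 UMI, UT in blue (209 and 836 cells) and IMQ in orange (47 and 524 cells), as bars from 0 with exact 95% Poisson intervals. Cilp and Thbs2 are lower in IMQ in both classes, Ccdc80 is lower in cells with Pi16 and higher in cells without it, and Sparc is about 2-fold higher in both.

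Other gene-positive classes set members apart from each other. Cthrc1, a secreted protein of activated fibroblasts, was found in 3 UT cells and 81 IMQ cells. Compared with the IMQ cells without it, the IMQ cells with it held more Sparc (55019 against 40062 CPM, log2 ratio 0.46, 0.41 to 0.51), Fn1 (330.2 against 157, 1.07, 0.30 to 1.79) and Ccdc80 (0.49, 0.11 to 0.84). In the same cells Cilp was at 45.0 against 167 CPM (-1.89, -4.21 to -0.28), on 3 UMIs, and Postn at 90.05 against 35.5, with an interval that held 0 but was clear of 0 (0.36 to 2.59) with the 10% limit. The 160 UT cells with Crabp1, a retinoid-binding protein of some dermal fibroblasts, held more Postn (52.2 against 14.5 CPM, 1.84, 0.54 to 3.12). They held less Fn1 (-1.92), Cilp (-1.57), Ccdc80 (-1.20), Tnxb (-1.15), Dpt (-0.85), Thbs2 (-0.81) and Sparc (-0.49). Only 9 IMQ cells held Crabp1, with a median of 1102 UMIs against 658 in those without. Sparc there was at 2951 CPM against 44548, on 76 UMIs, or, with the 10% limit, at 9376 against 45202 in 17 cells. A CPM pools the UMIs of a class, so in so few cells the deepest can carry the value. In the 155 UT cells with Clec11a, a secreted stromal growth factor, Sparc was at 25571 against 17978 CPM (0.51) and Spon2 at 166 against 86.7 (0.94). Fn1 (1.01), Cilp (0.96), Tnxb (0.80), Thbs2 (0.69) and Ccdc80 (0.27) were higher there as well, with intervals above 0. Dpt (-0.09) had an interval that held 0. Postn gave 0 against 24 UMIs, or 2 against 30 with the 10% limit, where the interval of its ratio held 0. Apcdd1, a Wnt inhibitor of papillary fibroblasts, was found in 19 UT and 3 IMQ cells. Among the UT cells with it Cilp was higher (0.87, 0.48 to 1.24), and Dpt (-0.99, -1.56 to -0.46) and Sparc (-0.57, -0.68 to -0.47) were lower. The UT cells with Apcdd1 had a median of 1775 UMIs against 731 in those without, those with Clec11a 1170 against 689 and those with Crabp1 904 against 717, and the IMQ cells with Cthrc1 786 against 651. The part of this depth in the differences was not tested.

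Sparc varied widely from cell to cell. Its median share of a cell's UMIs was 1.67% in UT, with 0.0041% and 6.29% at the 5th and 95th percentiles, and 4.24% in IMQ, with 0.356% and 9.18%. The fibrillar collagens had medians of 3.24% and 9.01%. The tenth of cells with the most Sparc UMIs held 38.01% of them in UT and 26.8% in IMQ. Such a share also follows the spread of depth among cells, and for Col1a1 it was 51.9% and 35.4%. Among 536 genes found in at least 10% of cells of both libraries, those whose log-scaled levels followed Sparc most closely were Dcn, encoding the collagen-binding proteoglycan decorin (Pearson r 0.57 in UT and 0.56 in IMQ), Col1a1 (0.60 and 0.54) and Col3a1 (0.52 and 0.56). For Ccdc80 it was Col1a2 (0.31 and 0.32), and none of Fn1, Thbs2, Tnxb, Cilp and Dpt reached 0.3 in both libraries with any of these genes, while Postn and Spon2 had too few UMIs to be ranked. These correlations are across 1045 and 571 cells of 1 library each, which share that library and differ in depth, and they are given as a description. Among the members themselves the closest pairs in UT were Cilp with Ccdc80 (0.38) and Thbs2 with Tnxb (0.34), which stood at 0.08 and 0.05 in IMQ. Cilp and Thbs2 gave only 69 and 62 UMIs in IMQ, so nothing is read from the lower values there.

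**Figure D5:**
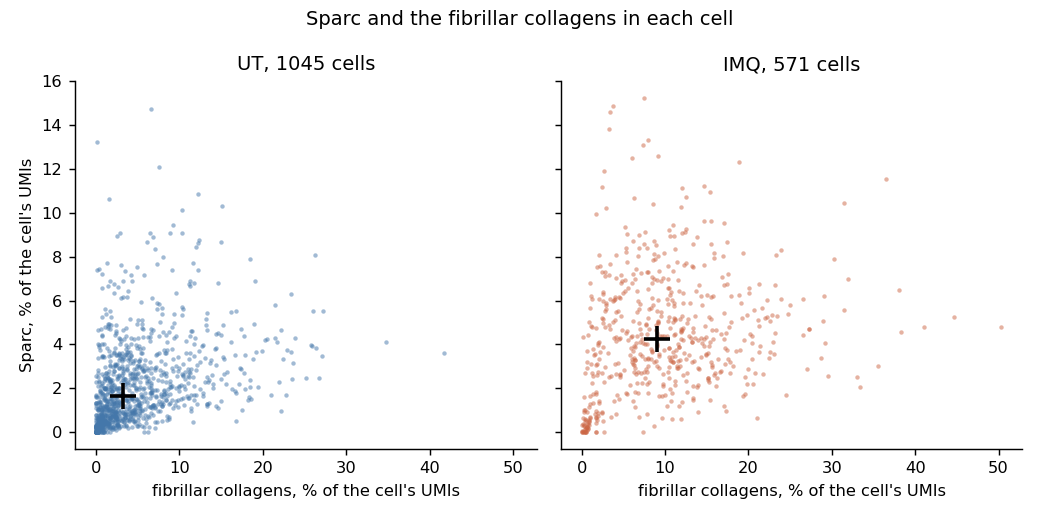
Share of each cell's UMIs from Sparc (vertical axis, %) against that from the fibrillar collagens (horizontal axis, %) in the UT library (left, 1045 cells) and the IMQ library (right, 571 cells), 1 point per cell, with a cross at the medians. The cross lies at 3.24% and 1.67% in UT and at 9.01% and 4.24% in IMQ.

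The wider families gave the context for the members, and were described by counts over fixed lists. Over all genes with at least 10 UMIs, 4.03% were past 2-fold higher and 34.2% past 2-fold lower. With the 10% limit these shares were 3.78% and 34.7%, so nothing is read from the counts of lower genes. Of 39 other matricellular and adhesive glycoproteins, 25 had at least 10 UMIs, 1 was past 2-fold higher and 6 past 2-fold lower in IMQ, and their median log2 ratio was -0.50. The higher one was Mgp, an inhibitor of mineralisation, with 16 UMIs in UT and 42 in IMQ, named after its value was seen. Among those with at least 100 UMIs, only Cyr61, a matricellular CCN protein and an early response gene, passed 2-fold, at 472 CPM in UT and 124 in IMQ (log2 ratio -1.93, -2.35 to -1.54). Fstl1, a SPARC-family protein, was at 1126 and 564 CPM (-0.997, just inside 2-fold), Ecm2 at 415 and 236 (-0.81), Abi3bp at 229.9 and 137 (-0.75), Svep1 at 109 and 69.4 (-0.65) and Ecm1 at 153 and 108 (-0.50). Tgfbi (-0.05), Sparcl1 (0.04), Smoc2 (0.13), Srpx (0.36) and Fndc1 (0.61) lay nearer to or above equality. With the 10% limit 28 were measured, 1 past 2-fold higher and 9 past 2-fold lower, and among relatives of Sparc the log2 ratio was 0.67 (0.24 to 1.09) for Sparcl1, 0.19 for Smoc2 and -0.96 for Fstl1. Svep1 moved to -0.26 (-0.68 to 0.15) and Cyr61 to -2.43.

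Of 18 other collagens 13 were measured, 1 past 2-fold higher and 2 past 2-fold lower, with a median of -0.12. For these collagens and the receptors below, the shares over all genes were 4.03% higher and 34.2% lower, or 3.78% and 34.7% with the 10% limit. The lower ones, Col12a1 and Col23a1, had 12 and 59 UMIs in UT against 2 and 8 in IMQ and were named after their values were seen. Col6a1, a chain of the beaded-filament collagen VI, was at 195 CPM in UT and 449 in IMQ (1.21, 0.92 to 1.49), but at 0.96 (0.74 to 1.19) with the 10% limit, where 0 of these collagens passed 2-fold higher, while Col6a2 (0.47), Col6a3 (0.68), Col4a1 (0.31), Col4a2 (0.75), Col15a1 (-0.15), Col16a1 (-0.94) and Col18a1 (-0.995) were within 2-fold. Of 21 receptors of these glycoproteins 8 were measured and 0 passed 2-fold in either direction, with a median of -0.26. With the 10% limit 11 were measured, and 1, Cd36, with 3 UMIs in UT and 10 in IMQ, was past 2-fold higher and 1, Itgb1 (-1.01), past 2-fold lower, Cd36 being named after its value was seen. At the 5% limit the thrombospondin receptor Cd47 was at 353 and 371 CPM (0.07), the integrin chains Itgb1 at 288 and 171 (-0.75) and Itgb5 at 253 and 193 (-0.39), and the collagen receptor Ddr2 at 170.2 and 104 (-0.71).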

How the data were processed

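Droplet libraries of sorted dermal cells were made with the Chromium 3′ v3 kit. The authors deposited, for each library, a table of unnormalised UMI counts per gene and barcode, which per the file headers came from Cell Ranger 3.0.0 (UT) and 3.1.0 (IMQ). The submitters' processing notes name the build mm10 and the tools CASAVA and Cell Ranger. The annotation used for counting and its strand setting are not given in the sources used here. A total of 0 columns could not be mapped to a sample.

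Barcodes with 200 to 5000 genes and at most 5% mt- UMIs were kept as in the study's methods, and a limit of 10% was run beside it. UMIs were summed per library and divided by the library total (CPM). A gene was called at a 2-fold ratio of CPM, a log2 limit of 1, with at least 10 UMIs over both libraries. Poisson, Clopper-Pearson and conditional binomial intervals are exact and at 95% (scipy 1.17.1). They cover counting error only. There was no test, since each group has 1 library. Where 1 library had 0 UMIs, a ratio is a bound against 3 UMIs. The calculations were tested on simulated data. Cells were thinned to 400 UMIs with a fixed seed. The sort gate excluded doublets, and the study also removed those that DoubletFinder predicted. No caller was used in the main values here, while Scrublet (scanpy 1.11.5) served as an alternative, as did TMM scaling (edgeR 4.0.16). The members, the gene lists and the motif letters were chosen with earlier results of these data known. All 9 members are named, and of the collagen, glycoprotein and receptor lists those genes with at least 100 UMIs; genes like a member are the 3 with the highest lower r for members with at least 200 UMIs, printed from 0.3. A further list of cell type markers is not reported here.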

Additional observations from a re-analysis of the deposited data

Results flagged for a closer look

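A signal was found in barcodes outside both mt- limits, which the split by mt- share also covers, or under the gene minimum. In IMQ barcodes with 200 to 5000 genes and over 10% mt- UMIs, Sparc stood at 47996 CPM (47224 to 48778, 382 barcodes), above the 21382 CPM (19718 to 23148) of the 48 UT barcodes of the same kind. In IMQ barcodes with under 200 genes it stood at 39769 CPM (39406 to 40134, 3621 barcodes), above the 18006 CPM (16446 to 19675) of 64 UT barcodes. Both were singled out because the IMQ interval lies above the UT interval in barcodes outside the filters. For the other 8 members the IMQ interval did not lie above the UT interval in either class. Sparc was seen in 92.0% of the IMQ barcodes with under 200 genes, at a median of 287 UMIs, so the barcodes outside the filters held Sparc at nearly the level of the kept cells. Those with under 200 genes also held the other members, with Dpt at 945 CPM against 939 in kept IMQ cells. Ccdc80 stood at 611 against 896, Tnxb at 315 against 297, Fn1 at 149.7 against 182 and Cilp at 109.9 against 149.7. Thbs2 stood at 99.5 against 135, Postn at 34.6 against 43.4 and Spon2 at 6.92 against 2.17. Whether those barcodes are cells was not tested.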

How the results depend on the processing

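The number of members at least 2-fold higher in IMQ was the least stable count. It was 1 as reported and 2 with the 10% mt- limit, with the top Scrublet scores removed (12 UT and 23 IMQ cells), without the cell richest in each gene, or with each cell counted equally. It was 3 under TMM scaling, median-of-ratios scaling, CPM without mt-, ribosomal protein, Gm42418 and AY036118 UMIs, thinning to 400 UMIs, and in cells without Pi16, the last chosen after seeing the data. With at least 500 genes per cell the number higher was again 1, but the member was Postn (1.31, -0.50 to 2.84) and not Sparc (0.17). The 3 members at least 2-fold lower remained 3 in number under all 13 alternatives. The shares of all genes moved with the scaling, from 4.03% higher and 34.2% lower as reported to 10.1% and 20.0% under TMM. They were 9.62% and 20.3% under median-of-ratios scaling, and 6.66% and 25.6% in CPM without mt-, ribosomal protein, Gm42418 and AY036118 UMIs. The median log2 ratio of the members was -0.18 as reported, -0.51 with at least 500 genes per cell, 0.31 and 0.30 under TMM and median-of-ratios scaling, 0.082 under the CPM without those UMIs and -0.43 in cells with Pi16, in which Postn gave no ratio. The scalings move every gene alike, by 0.48, 0.48 and 0.26, and the cause of the other shifts was not tested.

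The log2 ratio of the summed members per collagen UMI was 0.04 as reported, 0.086 with the 10% mt- limit, -0.16 with at least 500 genes per cell, -0.11 with each cell counted equally, -0.089 after thinning, 0.14 with no filter on barcodes, -0.25 in cells with Pi16, 0.64 when Col1a1, Col1a2 and Col3a1 were left out of the denominator and -1.43 without Sparc, so its sign depends on the setting. Over all genes, the share at least 2-fold higher was 2.43% of genes with at least 50 UMIs and 10.8% of genes with at least 1 UMI, and the share lower 28.4% and 43.9%. Of 116 single-member ratios under alternatives, 76 lay within the reported interval and 0 of those past 2-fold changed sign. Fn1, not past 2-fold, turned to -0.45 with at least 500 genes per cell. Thbs2 ranged from -2.14 to -1.29, Cilp from -2.28 to -1.59 and Sparc from 0.17 to 1.59. Of 54 shares of cells, 21 lay within the reported interval, as a share follows depth.

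No paired analysis was possible because each group has 1 library, so the groups share a single replicate number. The depth of 460947 UMIs in IMQ sets 3 UMIs at 6.51 CPM there, against 2.72 CPM in UT, which limits Spon2 and Postn most.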
